A study of Mus musculus with 12 samples.

Results

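The genes of 10 enzymes that modify, conjugate or clear reactive small molecules were followed in mouse adipocyte precursor cells. The genes were Inmt, Gsta3, Gsta4, Gstm1, Gstm2, Gstt1, Nqo1, Cyp1b1, Fmo1 and Adhfe1. They were found by symbol, and all 10 of the 10 were present among the 14398 genes of the count table. Inmt, Gsta3 and Adhfe1 were selected on their lower levels on the high-fat diet in these libraries. Their diet changes are therefore given as a description with no test, and the other 7 genes were tested in every comparison. All 10 passed the filter on low counts, and no library had a count of 0 for any of them.

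The cells came from male C57Bl6/J mice of 6 to 8 weeks and from 4 groups of 3 libraries, with each library pooled from 3 mice. VWAT_HFD was perigonadal (visceral) fat after 3 days of a 60% lard high-fat diet, and VWAT_SD was the same depot on standard diet, given in the labels as day 0. SWAT_HFD and SWAT_SD were inguinal (subcutaneous) fat on these diets. Precursors were sorted as CD45-/CD31-, CD29+, CD34+ and Sca1+ cells, CD24 negative and positive together, so the libraries average over precursor subsets. The day of collection went with the diet, and their effects cannot be told apart. The labels do not say more about how the pools were made, so the p-values measure the spread between these libraries.

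Detoxification is usually described in steps. Oxidising enzymes, such as cytochromes P450 and flavin monooxygenases, add or expose a polar group. Transferases then attach glutathione, a methyl group, sulfate or glucuronic acid, and transporters export the product. Many of these genes carry response elements for NRF2, the regulator of the antioxidant response, or for AHR, the receptor for aryl hydrocarbons. In fat tissue, glutathione transferases are best known for removing reactive aldehydes made when lipids are oxidised.

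The sequences below are the windows around the start sites of the 4 genes with an entry whose group means differ most, together with Gstm2, a mu class gene near Gstm1 whose diet difference did not pass the test. They are RefSeq sequences of build GRCm38.p6, from 250 bases before the start to 50 after it, written 5′ to 3′ on the gene's own strand, and 7 of the 10 genes had an entry. Counting was done on mm9, per the submitters' processing notes, so these coordinates belong to GRCm38.p6 alone. Capitals mark matches to TGACNNNGC, the core of the NRF2 element, or to GCGTG, the core of the AHR element, searched on both strands; in Inmt they mark the second copy of a repeat. The windows are Inmt at chr6:55174941-55175240 on the minus strand, Gsta3 at chr1:21240335-21240634 on the plus strand, the second start site of Gstm1 at chr3:108017769-108018068 on the minus strand, Gstm2 at chr3:107986371-107986670 on the minus strand and Cyp1b1 at chr17:79715012-79715311 on the minus strand.
Inmt: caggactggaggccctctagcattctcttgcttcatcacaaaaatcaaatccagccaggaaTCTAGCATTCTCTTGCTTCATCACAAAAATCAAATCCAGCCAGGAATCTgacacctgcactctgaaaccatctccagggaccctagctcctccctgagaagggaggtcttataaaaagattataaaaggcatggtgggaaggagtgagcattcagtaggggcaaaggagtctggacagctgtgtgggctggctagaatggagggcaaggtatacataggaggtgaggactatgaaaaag
Gsta3: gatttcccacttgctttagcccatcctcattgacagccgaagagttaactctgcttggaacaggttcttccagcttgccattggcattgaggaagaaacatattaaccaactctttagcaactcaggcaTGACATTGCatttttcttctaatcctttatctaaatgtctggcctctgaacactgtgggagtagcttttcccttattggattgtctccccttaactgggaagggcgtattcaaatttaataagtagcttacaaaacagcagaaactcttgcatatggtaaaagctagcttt
Gstm1: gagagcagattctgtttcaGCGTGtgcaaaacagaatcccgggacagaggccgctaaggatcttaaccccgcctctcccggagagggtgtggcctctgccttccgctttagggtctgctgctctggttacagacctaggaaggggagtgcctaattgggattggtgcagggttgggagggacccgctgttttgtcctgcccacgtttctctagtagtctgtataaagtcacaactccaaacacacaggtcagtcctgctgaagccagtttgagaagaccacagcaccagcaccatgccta
Gstm2: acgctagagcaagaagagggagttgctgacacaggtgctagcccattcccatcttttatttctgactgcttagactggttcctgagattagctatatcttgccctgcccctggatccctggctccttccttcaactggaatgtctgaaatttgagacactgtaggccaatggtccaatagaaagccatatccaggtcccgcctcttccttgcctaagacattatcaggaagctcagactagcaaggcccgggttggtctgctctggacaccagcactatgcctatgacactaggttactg
Cyp1b1: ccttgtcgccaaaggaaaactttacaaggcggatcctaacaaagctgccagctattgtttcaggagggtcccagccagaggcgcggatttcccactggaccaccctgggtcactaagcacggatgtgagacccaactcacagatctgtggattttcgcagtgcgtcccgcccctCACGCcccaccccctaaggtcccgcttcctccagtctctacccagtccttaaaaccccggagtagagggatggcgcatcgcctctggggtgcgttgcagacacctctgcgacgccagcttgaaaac
The Inmt window held no CpG and neither motif. It held an exact repeat of 49 bases that began at -235 and at -189 relative to the start site, a spacing of 46 bases, so that the copies overlap at their ends. Gsta3 held TGACNNNGC at -121, and this was the only match among the 7 genes with an entry. That motif was in 12.4% of 32851 such windows. GCGTG was in 32.4% of them and in 2 of the 7 genes, in Gstm1 at -231 from the second start site and in Cyp1b1 at -76, there on the opposite strand (printed CACGC). The windows of Gstm1 and Gstm2 shared no run longer than 9 bases and were identical at 46.9% of 326 aligned columns. These matches describe letters and not binding.

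In 2 of the 12 libraries markers stood apart from their group. VWAT_HFD replicate 3 had fewer cycling cell transcripts than the other 2 libraries of its group, with a summed level of 133 CPM over 15 cycling genes, against 337 and 537 CPM. CPM are counts per 1e6 counts, scaled with TMM. SWAT_HFD replicate 2 had the highest summed level of 12 leukocyte genes, 50.6 CPM, against 14.0 and 17.6 CPM in its group. The libraries held 17.6 to 56.1 M gene counts (M, 1e6). The genes of the sort were present as labelled: Cd34 at 956 to 1630 CPM, Ly6a (Sca1) at 386 to 1190 CPM and Itgb1 (CD29) at 486 to 812 CPM, whereas Ptprc (CD45) was at 0.129 to 6.93 CPM and Pecam1 (CD31) at 1.44 to 8.66 CPM.

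In visceral precursors, 3 of the 7 tested enzymes fell on the high-fat diet and none rose. They were the glutathione transferases Gsta4, Gstm1 and Gstt1, whereas Gstm2, Nqo1, Cyp1b1 and Fmo1 did not pass the test. Across all 14266 genes tested, 6.98% fell and 8.64% rose in this comparison. Changes are log2 HFD over SD from edgeR's quasi-likelihood test, and a gene "fell" or "rose" when its Benjamini-Hochberg adjusted p over all genes was under 0.05. The HFD libraries were all below the SD libraries for 5 of the 7, against 17.5% of all genes. The median change of the 7 was -0.52, beside -0.017 for all genes.

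**Figure D1:**
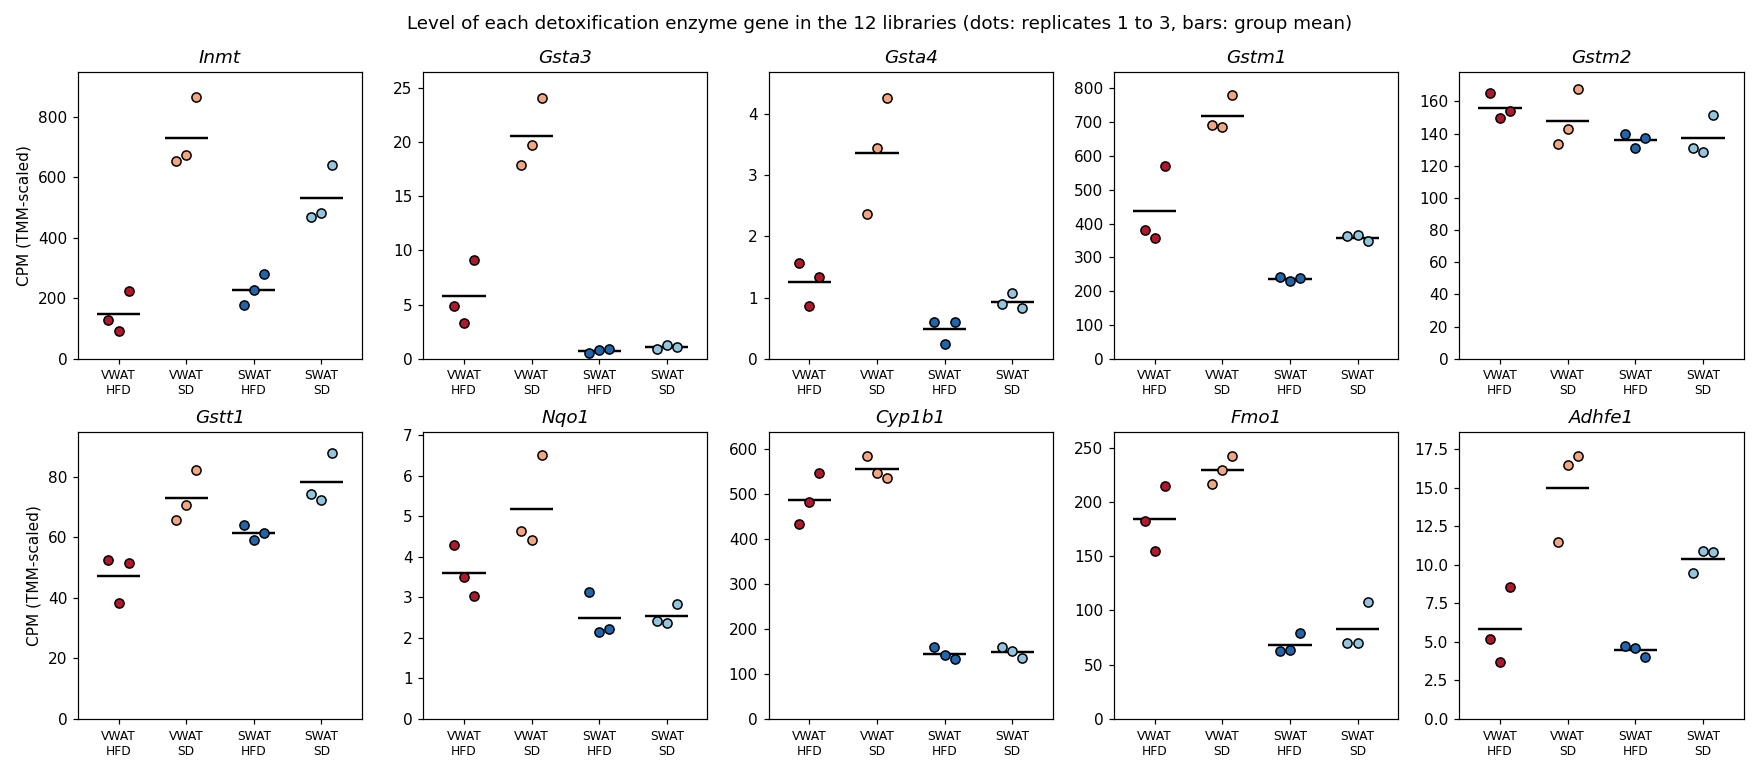
Level of each gene in CPM (TMM-scaled) in the 12 libraries; dots are libraries and bars are group means, in separate panels with their own axes. Inmt lies between 92.1 and 224 CPM in VWAT_HFD and between 655 and 864 CPM in VWAT_SD, and the highest and lowest group means of Gstm2 differ by 1.15-fold.

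Inmt, which transfers a methyl group to tryptamine and other amines, had 129.6, 92.1 and 224 CPM in the 3 VWAT_HFD libraries, against 655, 672 and 864 CPM in VWAT_SD. Every HFD library was below every SD library, and replicate 3 was the highest of its HFD group. The difference was -2.30 on the log2 scale, the 14th lowest of all genes tested, and -2.72 without VWAT_HFD replicate 3. In SWAT, Inmt had 177, 228 and 281 CPM on HFD, against 469.5, 481 and 639.9 CPM on SD. The groups again did not overlap, and the difference was -1.21. In bulk libraries, fewer cells that express a gene and less RNA per cell cannot be told apart.

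Gsta3, an alpha class glutathione transferase known in the mouse for conjugating aflatoxin epoxide, had 4.87, 3.35 and 9.12 CPM in VWAT_HFD, against 17.9, 19.8 and 24.1 CPM in VWAT_SD. The groups did not overlap. The difference was -1.83, or -2.32 without VWAT_HFD replicate 3. In SWAT, where each library held only 8 to 58 Gsta3 reads, the levels were 0.535, 0.805 and 0.895 CPM on HFD, against 0.880, 1.26 and 1.05 CPM on SD. These ranges overlapped and the difference was -0.42.

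Gsta4, the alpha class enzyme best known for conjugating hydroxynonenal, a product of lipid peroxidation, had 1.57, 0.863 and 1.33 CPM in VWAT_HFD, against 2.36, 3.45 and 4.26 CPM in VWAT_SD. All HFD libraries were lower. It fell by 1.41 on the log2 scale (SE 0.293, adjusted p = 0.00741), with 43 to 93 reads a library on HFD and 139 to 231 on SD. In SWAT it had 0.602, 0.248 and 0.603 CPM on HFD, against 0.899, 1.08 and 0.825 CPM on SD, which again did not overlap. That difference of -0.98 (95% interval -1.79 to -0.18) did not pass, with an adjusted p of 0.243 and only 8 to 50 reads a library.

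Gstm1, a mu class transferase and the most abundant of the tested transferases per kilobase, had 381, 359 and 571 CPM in VWAT_HFD, against 692, 685 and 781 CPM in VWAT_SD. The HFD libraries were all lower, with replicate 3 nearest to SD. It fell by 0.72 (SE 0.147, adjusted p = 0.00694), and by 0.96 without that library. In SWAT the levels were 241, 229.9 and 240.3 CPM on HFD, against 362, 366 and 348 CPM on SD. The ranges lay far apart for their width, and the difference was -0.60 (95% interval -0.92 to -0.28). Its adjusted p of 0.0765 missed the threshold. The SWAT difference passed in 5 of 21 alternatives, among them without VWAT_HFD replicate 3 (0.00121) and with DESeq2 (0.00457). In the other 16 it did not pass, with an adjusted p of up to 0.28.

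Gstm2, also of the mu class and encoded near Gstm1, had 165, 149.8 and 154 CPM in VWAT_HFD, against 133, 143 and 168 CPM in VWAT_SD. In SWAT it had 139.6, 131 and 137 CPM on HFD, against 131, 129 and 151 CPM on SD. The diet groups overlapped in both depots. The differences were 0.08 in VWAT (95% interval -0.14 to 0.30, adjusted p = 0.638) and -0.01 in SWAT (95% interval -0.23 to 0.20, adjusted p = 0.974), so a change as large as that of Gstm1 lay outside both intervals. With library size alone in place of TMM, the VWAT value was -0.03.

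The ratio of Gstm1 to Gstm2 counts, which does not depend on scaling, was 2.31, 2.40 and 3.71 in VWAT_HFD, against 5.19, 4.79 and 4.65 in VWAT_SD. It was 1.73, 1.76 and 1.75 in SWAT_HFD, against 2.76, 2.84 and 2.30 in SWAT_SD. The ratio was lower on HFD in each depot with no overlap. The 2 genes are similar in sequence: of the 75-base windows of their transcripts, 12.3% in Gstm1 and 2.77% in Gstm2 matched another gene exactly in GENCODE M21, none of them windows that the 2 share with each other. Their counts are uncertain to that extent.

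Gstt1, a theta class transferase known for acting on small halogenated compounds, had 52.4, 38.3 and 51.4 CPM in VWAT_HFD, against 65.9, 70.8 and 82.4 CPM in VWAT_SD. The HFD libraries were all lower. It fell by 0.62 (SE 0.127, adjusted p = 0.00666). In SWAT it had 64.0, 59.3 and 61.4 CPM on HFD, against 74.2, 72.4 and 87.8 CPM on SD. These groups did not overlap, but the difference of -0.34 (95% interval -0.62 to -0.07) had an adjusted p of 0.232.

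Nqo1, which reduces quinones to hydroquinones and is a standard NRF2 target, had 4.28, 3.51 and 3.03 CPM in VWAT_HFD, against 4.64, 4.40 and 6.52 CPM in VWAT_SD. The HFD libraries were lower by a narrow margin. The difference of -0.52 (95% interval -0.94 to -0.10) had an adjusted p of 0.0866, and of the alternatives run it passed only with library size alone (-0.63, adjusted p = 0.0387). In SWAT the groups overlapped at 3.14, 2.14 and 2.23 CPM on HFD, against 2.41, 2.36 and 2.84 CPM on SD, a difference of -0.05 with an adjusted p of 0.953.

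Among the oxidising enzymes, Cyp1b1, a P450 that hydroxylates aryl hydrocarbons and oestradiol and is induced through AHR, had 435, 483 and 546 CPM in VWAT_HFD, against 585, 547 and 535 CPM in VWAT_SD. The groups overlapped, and the difference of -0.19 had an adjusted p of 0.253. Fmo1, a flavin monooxygenase of nitrogen and sulfur compounds, had 182, 155 and 214 CPM in VWAT_HFD, against 216, 229 and 243 CPM in VWAT_SD. Its HFD libraries were all lower by a small margin, and the difference of -0.32 (95% interval -0.68 to 0.04) had an adjusted p of 0.211. In SWAT, Cyp1b1 had 159, 142 and 134 CPM on HFD, against 159, 151 and 137 CPM on SD. Fmo1 had 62.7, 63.6 and 79.4 CPM on HFD in SWAT, against 69.9, 70.2 and 107.7 CPM on SD. Both overlapped there, with differences of -0.04 and -0.26 and adjusted p of 0.913 and 0.507. Of the Fmo1 windows, 10.9% matched a sequence of another gene.

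Adhfe1, a mitochondrial transhydrogenase that oxidises gamma-hydroxybutyrate and is known in the mouse as a gene of differentiating adipocytes, had 5.21, 3.69 and 8.54 CPM in VWAT_HFD, against 11.5, 16.5 and 17.0 CPM in VWAT_SD. In SWAT it had 4.75, 4.61 and 4.02 CPM on HFD, against 9.43, 10.9 and 10.8 CPM on SD. The diet groups did not overlap in either depot. The differences were -1.37 in VWAT, or -1.75 without VWAT_HFD replicate 3, and -1.23 in SWAT.

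**Figure D2:**
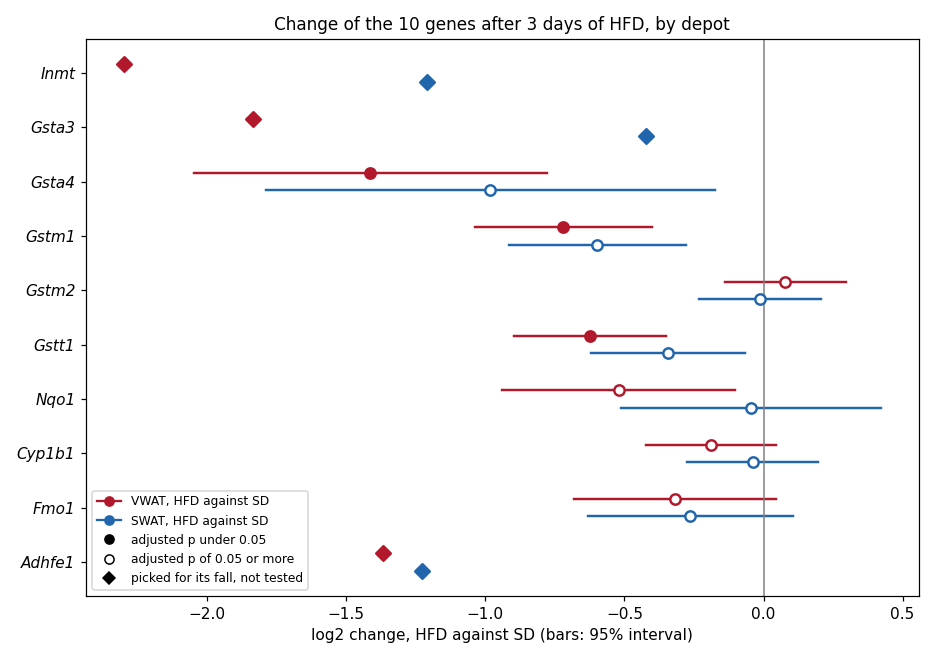
Log2 change of each gene, HFD against SD, in VWAT (red) and SWAT (blue); bars are 95% intervals, filled circles passed the test, open circles did not, and diamonds are the 3 genes picked for their fall, drawn with no interval. Gsta4, Gstm1 and Gstt1 passed in VWAT at -1.41, -0.72 and -0.62, and no tested gene passed in SWAT.

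In subcutaneous precursors, 0 of the 7 tested enzymes passed edgeR's test after 3 days of HFD, where 0.147% of all genes fell and 0.967% rose. At an unadjusted p under 0.05 there were 3, Gsta4, Gstm1 and Gstt1, all lower. DESeq2 called 1 (Gstm1) and limma voom 0. The HFD libraries were all lower for 3 of the 7, against 10.2% of all genes. The median of the 7 was -0.26, beside -0.00147 for all genes. The diet changes of the depots were then compared directly. For none of the 7 did the difference between depots pass, and none had an unadjusted p under 0.05 with edgeR, DESeq2 or limma voom. Over all genes edgeR called 0 as well (1026 at an unadjusted p under 0.05, and 33 with DESeq2). The values were -0.43 for Gsta4, -0.12 for Gstm1, -0.28 for Gstt1 and -0.47 for Nqo1, with adjusted p of 0.817 to 0.957. For the picked genes the differences of the changes were -1.09 for Inmt, -1.41 for Gsta3 and -0.14 for Adhfe1, with no test.

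Between the depots, the enzymes were mostly higher in visceral cells. On HFD, Gsta3, Gsta4, Gstm1, Cyp1b1 and Fmo1 were higher in VWAT than in SWAT and Gstt1 was lower, 5 and 1 of the 10, where 13.4% of all genes were higher and 13.4% lower. On SD, Gsta3, Gsta4, Gstm1, Nqo1, Cyp1b1 and Fmo1 were higher, 6 of the 10, and none was lower, where 13.2% of all genes were higher and 12.5% lower. These comparisons reuse the libraries of the diet comparisons, including those on which Inmt, Gsta3 and Adhfe1 were picked. A pick on low HFD levels beside high SD levels can itself move these depot values. The depot p-values of Inmt, Gsta3 and Adhfe1 below are therefore not independent of the pick. Gsta3 is also among the genes counted as higher on each diet.

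**Figure D3:**
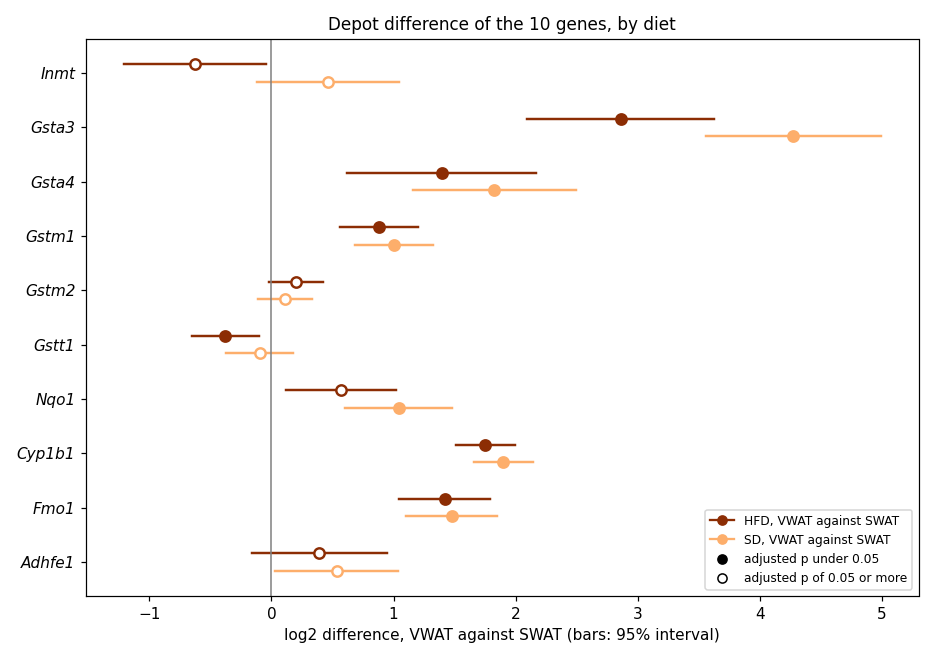
Log2 difference of each gene, VWAT against SWAT, on HFD (brown) and on SD (orange); bars are 95% intervals and filled circles passed the test. Gsta3 lies furthest to the right at 2.86 on HFD and 4.27 on SD, and Inmt lies on opposite sides of 0 on the 2 diets.

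Gsta3 differed most, by 2.86 on HFD (SE 0.355, adjusted p = 4.09e-05) and by 4.27 on SD (SE 0.330, adjusted p = 5.32e-07). That is 7.26-fold on HFD and 19.3-fold on SD, with no overlap on either diet. Cyp1b1 was higher in VWAT by 1.75 on HFD (adjusted p = 1.06e-07) and by 1.90 on SD (adjusted p = 4.71e-08). Its VWAT libraries began at 435 CPM and its SWAT libraries ended at 159 CPM. Fmo1 was higher by 1.42 on HFD (adjusted p = 3.29e-05) and 1.48 on SD (adjusted p = 2.32e-05).

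Gstm1 was higher in VWAT by 0.88 on HFD (adjusted p = 0.000521) and by 1.00 on SD (adjusted p = 0.000186). Gsta4 was higher by 1.39 on HFD (adjusted p = 0.0109), a call lost without SWAT_HFD replicate 2 (0.0597), and by 1.82 on SD (adjusted p = 0.000576). Nqo1 was higher by 1.04 on SD (adjusted p = 0.00164). Its difference on HFD was 0.57 with an adjusted p of 0.0615 (0.028 without VWAT_HFD replicate 3). Scaling by library size alone also took it past the threshold (0.85, adjusted p = 0.00535), as did the DESeq2 test (0.57, adjusted p = 0.0464), whereas limma voom did not (0.61, adjusted p = 0.0615), so which side of the threshold it took depended on the tool, the scaling and the libraries used. Gstm2 differed by 0.20 on HFD (adjusted p = 0.167) and by 0.11 on SD (adjusted p = 0.478). Gstt1 was lower in VWAT on HFD, at -0.38 (adjusted p = 0.0432). The Gstt1 call was lost in 11 of 21 alternatives, among them library size alone (-0.09, adjusted p = 0.611), and on SD the value was -0.10 (adjusted p = 0.643).

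Inmt did not differ between depots beyond the threshold, at -0.63 on HFD (adjusted p = 0.109) and 0.46 on SD (adjusted p = 0.243). The HFD value depended on VWAT_HFD replicate 3: without it the difference was -1.05 (adjusted p = 0.00263). With the replicate number as a block in the 6 SD libraries, the SD difference of Inmt was 0.47 (adjusted p = 4.97e-05). That of Adhfe1 was 0.51 (adjusted p = 0.000608). This block fit was not set in advance. It took the numbers as pairing the SD libraries of the depots, from the data and not from the labels. That pairing was assumed and not tested. That fit also left out the HFD libraries. In the 6 SD libraries without the block the values were 0.46 for Inmt (adjusted p = 0.0456) and 0.53 for Adhfe1 (adjusted p = 0.0269), and with the block in all 12 libraries neither passed (adjusted p = 0.0673 for Inmt and 0.118 for Adhfe1). In the fit of all 12 libraries without the block Adhfe1 differed by 0.53 on SD (adjusted p = 0.119) and by 0.39 on HFD (adjusted p = 0.300), and all its SD libraries were higher in VWAT. The SD difference of Adhfe1 also passed with library size alone (0.75, adjusted p = 0.0236), without VWAT_HFD replicate 3 (adjusted p = 0.0218) and without both libraries that stood apart (adjusted p = 0.0350).

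The order of the 4 group means differed among the genes. Gsta3, Gsta4, Gstm1, Nqo1, Cyp1b1 and Fmo1 were highest in VWAT_SD, followed by VWAT_HFD, SWAT_SD and SWAT_HFD. In Gsta3, Cyp1b1 and Fmo1 the widest step was that from VWAT_HFD to SWAT_SD, which differ in depot and in diet. It was 5.44-fold in Gsta3, 3.27-fold in Cyp1b1 and 2.23-fold in Fmo1. In Cyp1b1 and Fmo1 the diet groups within a depot did not differ past the test. VWAT_HFD and SWAT_SD, the neighbours in the middle of this order, overlapped in Gstm1 and Gsta4, and the SWAT groups overlapped in Gsta3 and Nqo1. Inmt ran from VWAT_SD (730 ± 116 CPM, SD, n = 3) through SWAT_SD (530 ± 95.3) and SWAT_HFD (229 ± 52.0) down to VWAT_HFD (148 ± 67.7). The last 2 overlapped. Adhfe1 was ordered VWAT_SD, SWAT_SD, VWAT_HFD and SWAT_HFD, at 15.0 ± 3.06, 10.4 ± 0.815, 5.81 ± 2.48 and 4.46 ± 0.389 CPM. Its HFD groups overlapped. Gstt1 was highest in SWAT_SD and Gstm2 differed by 1.15-fold in all between its highest and lowest group.

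Per kilobase of exon, which allows levels to be compared between genes, Inmt led in VWAT_SD at 678 CPM per kb, followed by Gstm1 at 526. Gstm2 was at 124, Cyp1b1 at 107, Fmo1 at 67.4 and Gstt1 at 49.5 CPM per kb. Gsta3 at 13.3, Adhfe1 at 4.63, Gsta4 at 3.44 and Nqo1 at 3.34 CPM per kb were low. In VWAT_HFD, Gstm1 at 320 CPM per kb was above Inmt at 138 and Gstm2 at 131 CPM per kb. Exon lengths were those of GENCODE M21 on GRCm38.

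The genes most like Inmt over the 12 libraries were Nmb, Pkp2 and Cbx7, by the root mean square difference of centred log2 CPM among 10439 genes. Their distances were 0.444, 0.449 and 0.452, beside a median of 1.03. Cbx7, a polycomb subunit, had 9.37 ± 4.57 CPM in VWAT_HFD and 27.7 ± 2.82 CPM in VWAT_SD, and 17.9 ± 1.91 CPM in SWAT_HFD and 28.3 ± 2.11 CPM in SWAT_SD. The genes most like Gsta3 were Reep1, Clic6 and Pla2g7, at 0.433, 0.438 and 0.504 beside a median of 1.93. Clic6, a chloride intracellular channel protein, had 16.8 ± 9.63 CPM in VWAT_HFD and 39.7 ± 9.96 CPM in VWAT_SD, and 2.75 ± 0.326 CPM in SWAT_HFD and 3.26 ± 0.486 CPM in SWAT_SD.

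The other genes of detoxification were taken as lists, and the values given with an adjusted p are log2 changes, HFD over SD. Over all genes, 6.98% fell and 8.64% rose in VWAT with all 12 libraries, beside which the VWAT counts of each list stand. Of 15 other glutathione transferases, 6 fell in VWAT on HFD and none rose, with a median of -0.30. The count was 3 of 15 without SWAT_HFD replicate 2 and 4 of 15 without both libraries that stood apart. Gstt2 had 6.63 ± 0.904 CPM on HFD and 10.6 ± 0.844 CPM on SD in VWAT (log2 change -0.68, adjusted p = 0.00502), Gstm7 changed by -0.88 (adjusted p = 0.0102) and Gstk1 by -0.51 (adjusted p = 0.0309). Gstm5, Gstt3 and Mgst1 were the others that fell. Of the enzymes that make and recycle glutathione, 2 rose and 3 fell among 17. Oplah, which opens oxoproline in the glutathione cycle, changed by -0.95 (adjusted p = 0.00339). Gpx3, the secreted glutathione peroxidase, had 1364 ± 235 CPM on HFD and 2261 ± 140.4 CPM on SD in VWAT (log2 change -0.73, adjusted p = 0.00521), and Gpx7, a peroxidase of the endoplasmic reticulum, changed by 1.02 (adjusted p = 0.00961).

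Other oxidising enzymes that passed in VWAT were mostly lower on HFD. Of 23 other genes of the P450 system 6 fell and none rose, with a median of -0.31. With DESeq2 9 fell and 1 rose. Ephx1 was among the 6 and is counted again in the NRF2 list below, so the lists are not separate sets. Nfe2l2 is likewise in both the NRF2 and the AHR list. Cyp2j9 changed by -0.96 (adjusted p = 0.00264), Cyp2d22 by -0.94 (adjusted p = 0.00379) and Cyp27a1, the sterol 27-hydroxylase, had 102 ± 32.8 CPM on HFD and 171 ± 18.9 CPM on SD. Of 10 other flavin and amine oxidases 3 fell, with a median of -0.49: Fmo5 (-0.78, adjusted p = 0.00448) and the aldehyde oxidases Aox3 (-1.12, adjusted p = 0.00979) and Aox1 (-0.81, adjusted p = 0.0128). Among 30 alcohol, aldehyde and hydroxyacid enzymes 4 fell and 1 rose, where 6.98% of all genes fell and 8.64% rose. Aldh1l2, the mitochondrial formyltetrahydrofolate dehydrogenase, rose in both depots, with 11.3 ± 5.31 CPM on HFD and 2.94 ± 0.105 CPM on SD in VWAT (1.94, adjusted p = 0.00159), and 45.3 ± 11.6 CPM on HFD and 15.9 ± 0.575 CPM on SD in SWAT (1.50, adjusted p = 0.0276). The SWAT call was lost with limma voom, and with edgeR it was lost, like every other call in SWAT, without SWAT_HFD replicate 2 or without any 1 of the SWAT_SD libraries. Aldh6a1 of valine breakdown changed by -0.79 (adjusted p = 0.00133) in VWAT and Adh1, which oxidises retinol, by -0.40 (adjusted p = 0.0100).

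**Figure D4:**
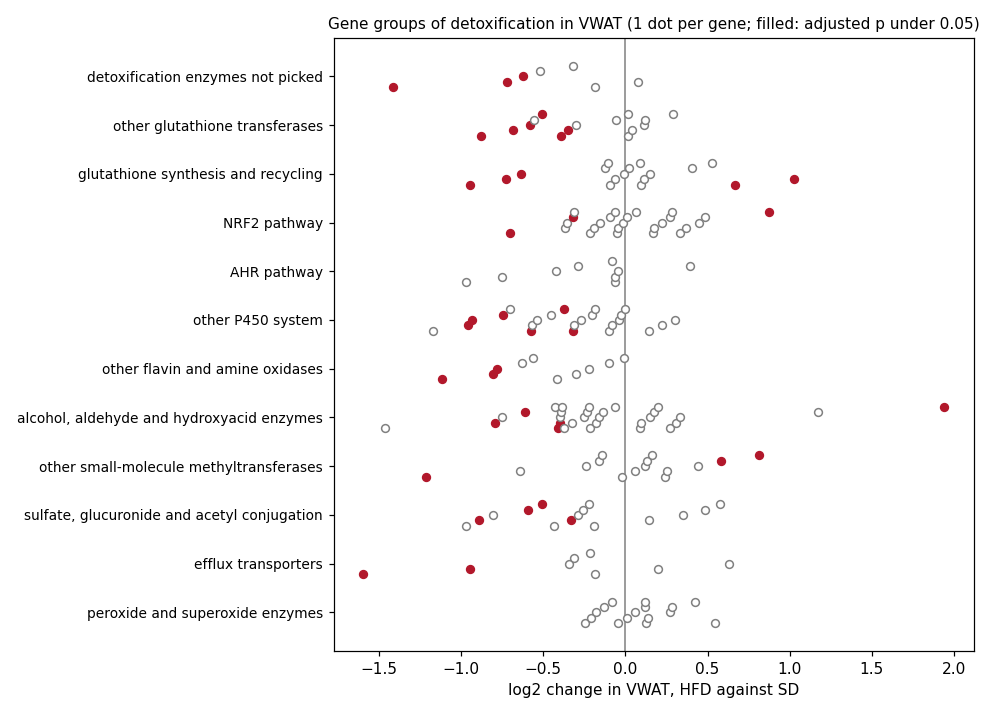
Log2 change in VWAT, HFD against SD, of each gene of the 11 lists and of the 7 tested enzymes (top row); 1 dot is 1 gene and filled dots passed the test. Other glutathione transferases (6 of 15 lower), the P450 system (6 of 23 lower) and the flavin and amine oxidases (3 of 10 lower) have filled dots only to the left of 0.

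Among 15 other small-molecule methyltransferases, the enzyme class of Inmt, 2 rose and 1 fell in VWAT. Nnmt, the nicotinamide methyltransferase related in sequence to Inmt, had 47.8 ± 13.2 CPM on HFD and 27.2 ± 1.57 CPM on SD (0.81, adjusted p = 0.00868), whereas Inmt was lower on HFD. Mettl7a1 fell (-1.22, adjusted p = 0.00300). Of 15 genes listed under sulfate, glucuronide and acetyl conjugation 4 fell and none rose, with Sult5a1 at -0.89 (adjusted p = 0.0113), Sult1a1 at -0.51 (adjusted p = 0.0114) and Nat6 at -0.33 (adjusted p = 0.0315). With DESeq2 4 fell and 2 rose. Nat6 was counted as listed, and whether it conjugates small molecules was not tested. Of 8 efflux transporters 2 fell, Slc47a1 (-1.60, adjusted p = 0.00228) and Abcb1a (-0.95, adjusted p = 0.0366), both at low levels of at most 3.27 ± 0.950 CPM in VWAT.

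The lists of the regulators came next. Of 25 genes of the NRF2 pathway 1 rose and 2 fell in VWAT, with a median of -0.02, where 8.64% of all genes rose and 6.98% fell. Srxn1, which restores oxidised peroxiredoxins, rose (0.87, adjusted p = 0.00352), and Osgin1 (-0.70, adjusted p = 0.00260) and the epoxide hydrolase Ephx1 (-0.32, adjusted p = 0.0164) fell. Nfe2l2, which encodes NRF2 itself and is named for that role, had 218 ± 8.27 CPM on HFD and 228 ± 5.88 CPM on SD (-0.06, adjusted p = 0.668). The edgeR test called 0 of 9 AHR pathway genes in VWAT (1 at an unadjusted p under 0.05, 0 with DESeq2 and 1 with limma voom). It called 0 of 16 peroxide and superoxide enzymes (4 at an unadjusted p under 0.05, 1 with DESeq2 and 0 with limma voom). In SWAT, Aldh1l2 was the only gene of the 11 lists that passed with edgeR, where 0.967% of all genes rose and 0.147% fell. With DESeq2 up to 3 genes of a list passed there, and up to 6 of a list had an unadjusted p under 0.05 with edgeR.

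Without VWAT_HFD replicate 3 the counts of genes that fell in VWAT were 5 of 15 for the other transferases, 11 of 23 for the P450 system, 7 of 10 for the flavin and amine oxidases, 8 of 30 for the alcohol and aldehyde enzymes and 5 of 25 for the NRF2 pathway. Those that rose were then 4 each for the NRF2 pathway and the alcohol and aldehyde enzymes, and 3 of 16 for the peroxide and superoxide enzymes. In the P450 system 1 rose in this setting. Of the 17 enzymes that make and recycle glutathione 3 rose and 3 fell, and of the 15 other methyltransferases 2 rose and 1 fell. Of the 15 conjugation genes 1 rose and 4 fell. Of the 8 efflux transporters 2 then rose and 4 fell. In the same setting 2137 of all 14324 genes tested rose and 2129 fell, against 1232 and 996 of 14266 with all 12 libraries. This alternative was chosen after the counts were seen.

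Ahr, the gene of the receptor whose known targets include Cyp1b1, was lower where Cyp1b1 was higher. It had 0.800 ± 0.409 CPM in VWAT_HFD and 6.47 ± 1.20 CPM in SWAT_HFD (log2 difference -3.02, adjusted p = 6.43e-06), and 1.08 ± 0.250 CPM in VWAT_SD and 5.67 ± 1.13 CPM in SWAT_SD (-2.39, adjusted p = 3.70e-05). Hmox1, a standard NRF2 target that degrades haem, was likewise lower in VWAT, at -0.88 on HFD (adjusted p = 7.40e-05) and -0.80 on SD (adjusted p = 0.000173), whereas Nqo1 was higher on SD. Ahr and Hmox1 were chosen after their depot values were seen. Of the 9 tested AHR pathway genes 2 were higher and 2 lower on each diet, and of 25 NRF2 pathway genes 1 was higher and 7 lower on HFD, and 0 and 7 on SD. Over all genes, 13.4% were higher and 13.4% lower on HFD, and 13.2% and 12.5% on SD.

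Cycling transcripts moved with the diet beside these enzymes. The 15 cycling genes summed to 133 to 537 CPM in VWAT_HFD and 29.4 to 45.3 CPM in VWAT_SD, and to 118 to 168 CPM in SWAT_HFD and 16.8 to 28.3 CPM in SWAT_SD. Of the 15, 15 rose in VWAT and 13 in SWAT, where the calls were lost without SWAT_HFD replicate 2 or any 1 of the SWAT_SD libraries. With limma voom only 6 of all genes were called higher in SWAT, so at most 6 of the 13 calls can remain with that tool. Within VWAT_HFD, replicate 3 had the lowest cycling level and the highest Inmt, Gsta3, Gstm1, Adhfe1, Cyp1b1 and Fmo1. Gsta4, Gstm2, Gstt1 and Nqo1 were instead highest in replicate 1, and Nqo1 was lowest in replicate 3. In SWAT, Inmt was highest on SD in replicate 3, which had the highest cycling level of that group. On HFD it was lowest in replicate 1, which had the lowest cycling level of that group. The part of cycling cells in these results was not tested.

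**Figure D5:**
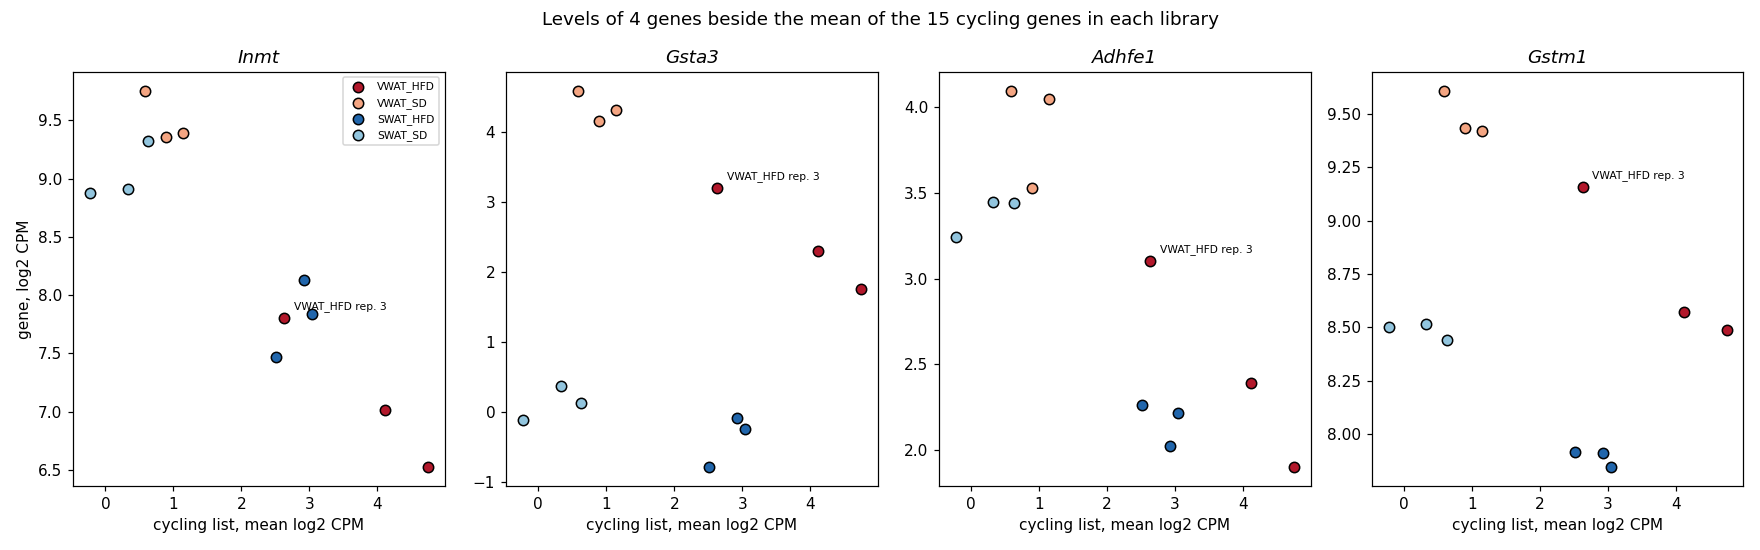
Log2 CPM of Inmt, Gsta3, Adhfe1 and Gstm1 (y axes) against the mean log2 CPM of the 15 cycling genes (x axes) in the 12 libraries, coloured by group. HFD libraries lie to the right at 2.51 to 4.74 and SD libraries at -0.23 to 1.14, and VWAT_HFD replicate 3, at 2.64, lies nearest to SD within its group.

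Markers of other cell types were summed in each library. Mature adipocyte genes (7) summed to 14.2 to 15.9 CPM in VWAT_HFD and 19.4 to 25.3 CPM in VWAT_SD, and to 9.51 to 12.4 CPM in SWAT_HFD and 11.5 to 14.2 CPM in SWAT_SD. Lipe alone made up most of these sums, at 10.6 ± 2.41 CPM in VWAT_HFD and 18.8 ± 3.17 CPM in VWAT_SD. In SWAT it had 7.70 ± 0.849 CPM on HFD and 10.2 ± 1.59 CPM on SD. Of the 6 adipocyte genes tested, 3 had a change below 0 on HFD in VWAT (median -0.29) and 2 in SWAT (median 0.25). Lipe was the only 1 of the 6 that passed in VWAT (-0.83, adjusted p = 0.00708), and 0 passed in SWAT. Between depots, mesothelial genes (8, of which 3 were at 0 in some library) summed to 130 to 158 CPM in VWAT_HFD and 9.63 to 11.6 CPM in SWAT_HFD, and to 155 to 174 CPM in VWAT_SD and 13.0 to 16.4 CPM in SWAT_SD. Wt1, which visceral precursors also express, made up most of the VWAT sum at 107.5 ± 10.9 CPM on HFD and 115 ± 15.4 CPM on SD, and Msln, a defining mesothelial gene, was at 0.892 ± 0.515 CPM on HFD and 1.13 ± 0.583 CPM on SD. Schwann cell genes (6) ran the other way, at 7.48 to 9.85 CPM in VWAT_HFD and 36.4 to 39.9 CPM in SWAT_HFD, and at 10.9 to 13.8 CPM in VWAT_SD and 37.7 to 45.3 CPM in SWAT_SD. They were thus also lower on HFD within VWAT, where Mbp, a myelin gene, fell (-1.13, adjusted p = 0.00169). The 12 leukocyte genes summed to 8.43 to 11.7 CPM in VWAT_HFD and 11.9 to 19.0 CPM in VWAT_SD, and Cd14 among them fell (-0.87, adjusted p = 0.00339). In SWAT they summed to 14.0 to 50.6 CPM on HFD, with the highest in replicate 2, and to 13.0 to 15.7 CPM on SD. The part of these cells in the results was not tested.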

How the data were processed

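Gene expression of sorted adipocyte precursors was measured in 12 RNA-seq libraries. Per the labels' protocols, the libraries were poly(A)-selected, marked the strand with dUTP and gave single 75-base reads. TopHat, HTSeq and build mm9 are named per the submitters' processing notes; versions and the strand setting of the counting are not given in the sources used here. Raw read counts of 14398 genes were deposited by the authors. A further 3 entries that name no gene held 3.53 to 5.57% (no feature), 1.71 to 1.95% (ambiguous) and 15.0 to 20.8% (not unique) of each library and were left out.

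The members and lists were chosen with earlier results of these data known. Genes were filtered with filterByExpr (14266 tested, 132 removed), scaled with TMM (factors 0.825 to 1.14) and tested with edgeR 4.0.16 (quasi-likelihood F test, robust, R 4.3.3) in 1 fit of the 4 groups with 5 contrasts. P-values were adjusted by the Benjamini-Hochberg method across the 14266 genes, with a threshold of 0.05. CPM are given as mean ± SD over 3 libraries, and log2 CPM has a prior count of 2. Exact permutation tests of single values were not used, since 0.1 is the smallest p that 3 libraries against 3 allow. No libraries of a group agreed within sampling noise.

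Alternatives were DESeq2 size factors, library size alone, no filter, a minimum mean of 5 CPM, DESeq2 1.42.0, limma voom (3.58.1), a replicate block, only the libraries compared and leaving out libraries. Same-numbered SD libraries of the depots had correlations over genes of 0.177, 0.178 and 0.398. The numbers were taken to pair them there, from the data and not from the labels. In the other comparisons the correlations were -0.0754 to 0.184. The highest of these, between the depots on HFD in replicate 2, lay above 0.177 and 0.178. No correlations of differently numbered libraries are given, so these values cannot decide whether the numbers mark pairs.

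All 10 members are named. From each list, up to 3 genes with the lowest adjusted p past the test are named per diet comparison (1 of these is not reported here), and for Inmt and Gsta3 the 3 most alike genes that reach a mean of 5 CPM in a group. Exons and shared 75-base windows come from GENCODE M21 on GRCm38, and promoters from RefSeq on GRCm38.p6, neither of them the build of the counting.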

Additional observations from a re-analysis of the deposited data

How the results depend on the processing

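The falls of Gsta4, Gstm1 and Gstt1 in VWAT passed in every alternative in which they were tested (highest adjusted p 0.0443, 0.0485 and 0.0374); Gsta4 was not tested with a mean CPM of at least 5. Genes called in VWAT (2228) were 1246 with only the libraries compared, 4054 without VWAT_HFD replicate 3 and SWAT_HFD replicate 2, and 757 to 4266 when 1 library was left out. In SWAT (159) they were 263 with library size alone, 519 with DESeq2, 12 with limma voom, 247 with the replicate block, 352 with only the libraries compared, 249 without those 2 libraries and 0 to 615 without 1. For the difference between the diet changes (0) they were 33 with DESeq2, 1 with the replicate block, 46 without the 2 libraries and 0 to 135 without 1. Between depots, 3830 became 6954 on HFD with library size alone (2852 to 4366 without 1 library), and 3669 became 6662 on SD in the 6 SD libraries with the replicate block (2865 to 4411). Of the 7 tested members, 3 were called in VWAT whichever library was left out, 0 to 1 in SWAT and 0 for the difference. In SWAT 1 was called, Gstm1, with library size alone (adjusted p 0.0304), DESeq2 (0.00457), only the libraries compared (0.00441), the 2 libraries left out (0.0109) and without VWAT_HFD replicate 3 (0.00121). Of the 10, 4 to 8 were called between depots on HFD (fewest without SWAT_HFD replicate 2, most without VWAT_HFD replicate 3) and 6 to 7 on SD. On SD 8 were called in the 6 SD libraries with or without the replicate block and with library size alone. In the fit of all 12 libraries the block called Inmt on HFD (-0.68, adjusted p 0.0132) and changed no other call of a member. Changes near 0 reversed under some settings. Gstm2 was -0.032 in VWAT with library size alone, and in SWAT -0.057 to 0.062 without 1 library (above 0 without SWAT_SD replicate 3 or SWAT_HFD replicate 2) and 0.0074 without the 2 libraries. In SWAT, Nqo1 was -0.21 to 0.044 without 1 library (above 0 without SWAT_SD replicate 3, SWAT_HFD replicate 2 or SWAT_HFD replicate 3) and 0.032 without the 2, and Cyp1b1 was -0.11 to 0.014 without 1 (above 0 without SWAT_SD replicate 1 or SWAT_HFD replicate 3). The difference between the diet changes was -0.36 to 0.0013 for Gstm1 and -0.51 to 0.099 for Adhfe1 (above 0 without VWAT_HFD replicate 2), and -0.29 to 0.074 for Fmo1, which was 0.011 with library size alone. Gstt1 between depots on SD was 0.12 with library size alone. That scaling moved the median of all genes to -0.126 in VWAT, -0.177 in SWAT, 0.301 between depots on HFD and 0.236 on SD, and split the calls into 799 higher and 1822 lower in VWAT (1232 and 996 with TMM), 101 and 162 in SWAT (138 and 21), 5830 and 1124 on HFD (1918 and 1912) and 4279 and 1118 on SD (1880 and 1789). The cause of these changes was not tested. Depth limits Gsta3 and Gsta4 in SWAT, with 8 to 58 reads a library.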
